A study of Glycine max with 12 samples.

Results

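The genes described here were the most abundant transcripts of soybean pods grown without stress. A gene was included when its mean over the 3 control libraries reached 500 CPM, where CPM is the count of a gene divided by the summed counts of its library and multiplied by 1000000. Of the 57147 IDs in the count table, 133 met the limit, which is 0.233% of the IDs, and all 133 passed the filter on low counts that left 38737 genes for testing. Of the 133, 131 carried a GLYMA ID and 2 an ENSRNA ID, the prefix that Ensembl gives to non-coding RNAs. The IDs are printed without gene names, because none of them matched the gene table used here, so the genes are described by their rank in control CPM, by their levels and by how they moved.

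In plant tissues a small group of genes supplies a large part of the messenger RNA. A transcript becomes abundant when its gene is copied often, when its RNA is stable, or both, and its share of a library also depends on which cells the tissue holds. Green fruits such as young pods are known for abundant messengers of photosynthesis, of protein synthesis and of stored protein, and stress can reorder such messengers within the pool. A share of reads is a relative measure, since every share falls when a few genes gain. In bulk tissue, fewer cells of a type and less RNA per cell cannot be told apart.

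The 12 libraries came from pods of Glycine max cultivar Magellan, inoculated with Bradyrhizobium japonicum, and formed 4 groups of 3. Plants aged 16 to 18 days, at their first open flower, were assigned at random to 4 growth chambers, each holding a single condition. Combined stress paired 38 °C days and 28 °C nights with 30% of the water available for transpiration, heat stress used the same temperatures with 100% of that water, water deficit used 28 °C days and 24 °C nights with 30%, and control used the cooler temperatures with 100%. Each library pooled RNA from 10 to 15 pods of 8 to 10 plants, and condition and chamber cannot be told apart. The tissue label was not checked against marker genes, since the IDs had no names.

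Library totals ranged from 17310023 to 26591115 counts. The lowest count of any of the 133 genes in any library was 626, so counting error was small beside the spread between replicates, and such error is the only kind that depth describes, since reads copied by PCR are not independent molecules. Water deficit replicate 2 stood apart, with 87.5% even numbers among genes at 6 to 65 counts, against 59.1% to 78.8% in the other 11 libraries, and with the lowest mean correlation to its own group, 0.931. Among genes at 6 to 65 counts, even numbers exceeded 50% in every library. Among the counts of the 133 genes, between 37.6% and 54.1% per library were even. Whether the mates of a read pair were counted separately was not tested.

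In control pods the 133 genes had a median of 751.5 CPM. The first in rank averaged 7426 CPM and the last 501.9 CPM. Only 3 genes reached 5000 CPM, a further 9 lay between 2000 and 5000 CPM, 31 between 1000 and 2000 CPM, and 90 between 500 and 1000 CPM. The limit cut through a continuous range: the last 3 inside it averaged 506.2, 502.9 and 501.9 CPM, and the first 3 outside it averaged 488.0, 487.8 and 484.9 CPM. In 107 of the 133, each of the 3 control libraries reached 500 CPM by itself, and in 66 all 12 libraries did. The median coefficient of variation between replicates was 7.83% in combined stress, 12.7% in heat stress, 11.3% in water deficit and 9.59% in control. CPM does not divide by gene length. On the deposited FPKM scale, which does, the first in rank remained the highest of all genes at 9089 FPKM in control, and 94 of the 133 (70.7%) were among the 133 genes with the highest control FPKM.

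Together these genes held between 14.49% and 17.95% of the counts in every library, most in heat stress. Their share of all counts was 15.36%, 14.87% and 14.49% in the combined stress libraries, 17.95%, 16.17% and 15.99% in the heat stress libraries, 16.40%, 14.56% and 15.18% in the water deficit libraries, and 15.37%, 15.21% and 14.93% in the control libraries. Heat stress libraries all lay above the control and the combined stress libraries, while combined stress and water deficit overlapped with control. Group means were 14.91% ± 0.434 in combined stress, 16.70% ± 1.085 in heat stress, 15.38% ± 0.937 in water deficit and 15.17% ± 0.222 in control (SD, n = 3 each). The control share was set by the choice of the genes and was not tested. Between the stress groups, an exact two-sided permutation test gave p = 0.1 for combined stress minus heat stress, a difference of -1.80 percentage points, and 0.1 is the smallest p that 3 libraries against 3 allow. Adjusted over the 3 pairs it was 0.3. Combined stress minus water deficit was -0.476 points (exact p = 0.6, adjusted 0.6) and heat stress minus water deficit was 1.32 points (exact p = 0.3, adjusted 0.45). Without water deficit replicate 2 the water deficit mean was 15.79%. The separation of heat stress from control depended on the gene first in rank. Without that gene, heat stress replicate 3 held 14.40%, below control replicates 1 and 2 at 14.43% and 14.53%.

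**Figure D1:**
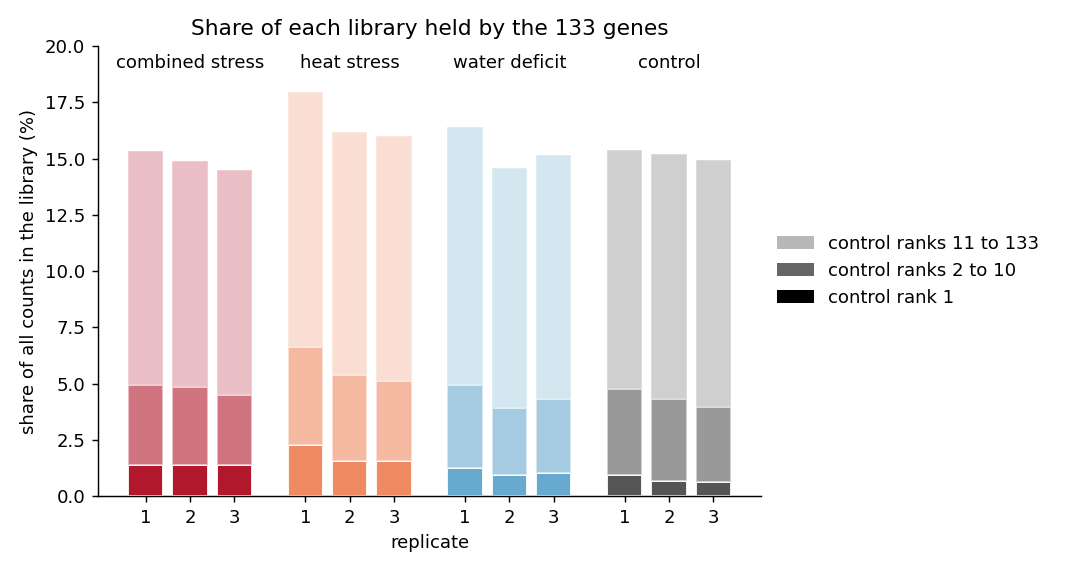
Share of all counts (vertical axis, percent) held by the 133 genes in each of the 12 libraries, stacked by control rank, with combined stress at the left and control at the right. The stacks reach between 14.49% and 17.95%, and the darkest segment, the gene first in rank, is tallest in heat stress replicate 1.

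To see how far the choice on control shaped these shares, the genes were chosen again on 2 control libraries and read in the remaining one. The lists then held 133, 131 and 136 genes. The held-out control library gave them 15.18%, 15.06% and 14.92%, while combined stress gave the same lists 14.56%, 14.62% and 15.11%, heat stress 16.29%, 16.58% and 17.02%, and water deficit 15.33%, 15.25% and 15.45%. Heat stress was the highest group for each of the 3 lists.

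Within that total, genes moved in opposite directions. In combined stress, 37 of the genes had a higher group mean than in control and together gained 3.29 percentage points of the library, and 96 had a lower one and together lost 3.55 points, for a net difference of -0.264 points. In heat stress 58 genes gained 3.28 points and 75 lost 1.74 points, a net 1.53 points. Water deficit moved least, with 1.36 points gained over 58 genes and 1.14 points lost over 75. A few genes carried much of this: the genes ranked 1st, 100th and 3rd supplied 1.46 of the points gained in combined stress and 1.84 of those gained in heat stress.

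The gene first in rank took a larger share in every stress group. It had 13843, 13847 and 13788 CPM in combined stress, 22669, 15774 and 15862 CPM in heat stress, 12424, 9632 and 10221 CPM in water deficit, and 9362, 6746 and 6170 CPM in control. No stress library fell below the highest control library, and the combined stress libraries were nearly equal. That gene alone was 1.38% ± 0.00329 of the library in combined stress, 1.81% ± 0.396 in heat stress, 1.08% ± 0.147 in water deficit and 0.743% ± 0.170 in control (SD, n = 3 each). Between heat stress and water deficit its log2 change was 0.77 ± 0.174 (SE, adjusted p = 0.0186 by edgeR), and the call was lost without heat stress replicate 1, water deficit replicate 2 or water deficit replicate 3, with a highest adjusted p of 0.0860.

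Ranks 2 to 10 showed no common direction. They held 3.38% ± 0.233 in combined stress, 3.90% ± 0.426 in heat stress, 3.31% ± 0.365 in water deficit and 3.62% ± 0.243 in control. The gene ranked 8th had 6487, 6992 and 5875 CPM in combined stress, 4598, 5329 and 4965 CPM in heat stress, 3333, 3893 and 3633 CPM in water deficit, and 4163, 3121 and 2508 CPM in control. It was above water deficit in every combined stress library, by a log2 change of 0.77 ± 0.149 (SE, adjusted p = 0.00182 by edgeR). The gene ranked 7th went the other way, with 2106, 1647 and 1695 CPM in combined stress, 2438, 2764 and 2697 CPM in heat stress, 4038, 3804 and 3494 CPM in water deficit, and 3244, 3415 and 3382 CPM in control. Its combined stress libraries lay below all others, by a log2 change of -1.12 ± 0.127 against water deficit (SE, adjusted p = 1.11e-05 by edgeR). The genes ranked 3rd, 4th, 5th and 10th passed the test in none of the 3 comparisons between stress groups.

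The bulk of the list, ranks 11 to 133, held its smallest share in combined stress. These 123 genes held 10.14% ± 0.225 in combined stress, 10.99% ± 0.289 in heat stress, 11% ± 0.432 in water deficit and 10.80% ± 0.191 in control (SD, n = 3 each). The combined stress libraries, at 9.99% to 10.40%, did not overlap with those of heat stress or of water deficit (exact permutation p = 0.1 for each, the smallest possible, adjusted 0.15). Most of these 123 genes, the 90 at 500 to 1000 CPM in control, did not share that order. Those 90 held 5.97% in combined stress, 6.30% in heat stress, 5.88% in water deficit and 5.95% in control.

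Changes against control are given as a description only, because the control libraries chose the genes, and a choice on high control values favours lower values elsewhere. By edgeR's quasi-likelihood test at an adjusted p under 0.05, 71 of the 133 were called in combined stress, 11 higher and 60 lower, where 13.9% of all genes tested were called (5.38% higher and 8.56% lower). In heat stress 19 were called, 7 higher and 12 lower, beside 1.90% of all genes tested (1.13% higher and 0.764% lower). In water deficit 0 of the 133 were called, beside 0.0955% of all genes tested (0.00516% higher and 0.0903% lower). Of the 253 genes at 250 to 500 CPM in control, 61.7% were called in combined stress (17 higher and 139 lower), against 53.4% of the 133. In heat stress 9.88% of those 253 were called (8 higher and 17 lower), against 14.3% of the 133. In water deficit 0.395% of those 253 were called. At an unadjusted p under 0.05 the water deficit count was 15 of 133, where 4.35% of all genes passed, and DESeq2 and limma-voom each called 1 gene, lower. The median log2 change of the 133 was -0.34 in combined stress, -0.02 in heat stress and -0.02 in water deficit, beside 0.012, 0.008 and -0.004 over all genes tested. The middle part of the 133, between the lower and upper quartile, spanned -0.82 to -0.05 in combined stress, -0.30 to 0.23 in heat stress and -0.10 to 0.13 in water deficit. Changes of more than 1 on the log2 scale were found in 22 of the 71 genes called in combined stress and in 5 of the 19 called in heat stress. The heat stress count fell to 8 without control replicate 2 and to 10 without heat stress replicate 3.

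**Figure D2:**
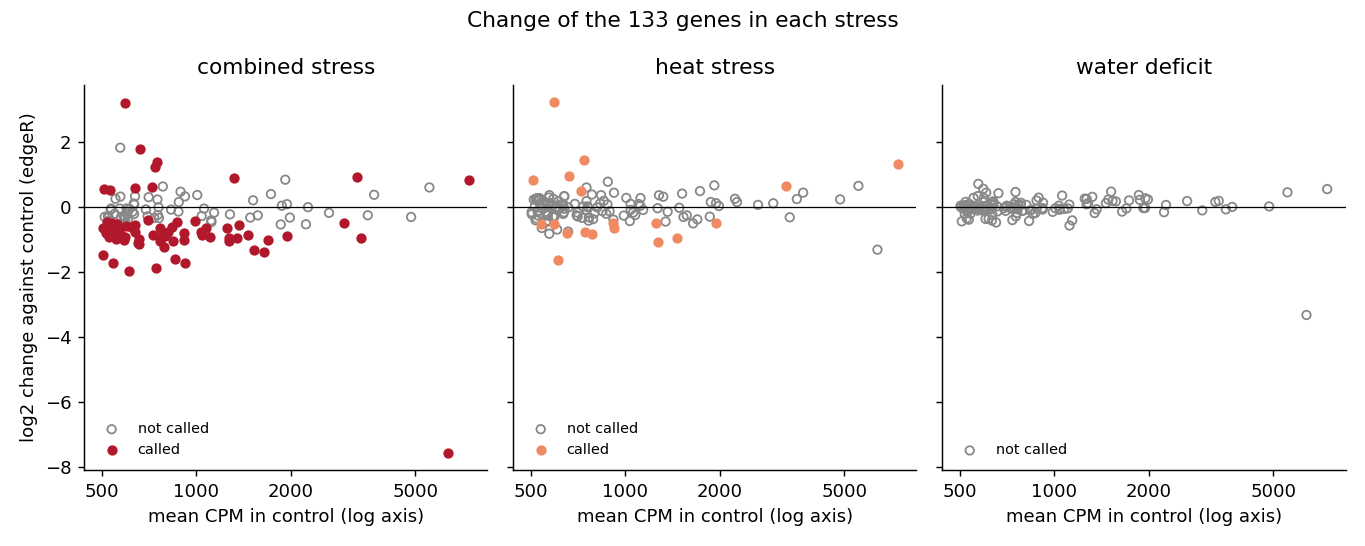
Log2 change against control from edgeR (vertical axis) against mean control CPM (horizontal, log axis) for the 133 genes, with a panel each for combined stress, heat stress and water deficit. Filled points are the 71, 19 and 0 genes called, and the lowest point in the combined stress panel is the gene ranked 2nd, at -7.55.

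The 11 genes called higher in combined stress were 3.83% ± 0.146 of the library there, 3.74% ± 0.611 in heat stress, 2.17% ± 0.190 in water deficit and 1.72% ± 0.228 in control. The 60 called lower were 3.10% ± 0.146 in combined stress, 4.61% ± 0.2 in heat stress, 5.47% ± 0.122 in water deficit and 6.06% ± 0.266 in control (SD, n = 3 each). Combined stress and control are the extremes here by the way these genes were picked, so nothing is read from where heat stress and water deficit lie.

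When genes were chosen on 2 control libraries and the stress groups were set against the remaining one alone, 8, 6 and 7 were called higher and 41, 39 and 34 lower in combined stress, and 2, 2 and 6 higher and 3, 2 and 3 lower in heat stress. Control is then a single library, assumed to vary like the other groups, so these counts are a description. The share of all genes called in those fits is not given here, so whether the counts stand out cannot be told. Genes were also chosen by a mean of at least 500 CPM over all 12 libraries. That list gave 22 higher and 42 lower in combined stress, and 13 higher and 8 lower in heat stress. Such a choice weighs the groups equally, but a gene can pass it through a group where it is high. These counts too are a description. Under the choice on all 3 control libraries the heat stress calls had been 7 higher and 12 lower, so their direction depended on the choice of genes.

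Comparisons between the stress groups did not use the control means, but the control libraries were part of the same fit and its estimate of the spread. Against heat stress, 3 of the 133 were higher and 39 lower in combined stress, beside 1.64% and 3.61% of all genes tested. Against water deficit, 11 were higher and 60 lower in combined stress, beside 5.25% and 8.19% of all genes. Between heat stress and water deficit, 7 were higher and 16 lower in heat stress, beside 2.10% and 1.69%. Over both directions, 5.25%, 13.4% and 3.79% of all genes were called in these 3 comparisons. Genes just below the limit were called about as often: of the 253 genes at 250 to 500 CPM in control, 38.7% were called between combined stress and heat stress (31.6% of the 133), 57.7% between combined stress and water deficit (53.4% of the 133), and 14.2% between heat stress and water deficit (17.3% of the 133). By direction, 5 of the 253 were higher and 93 lower in combined stress than in heat stress. Against water deficit, 12 of the 253 were higher and 134 lower in combined stress. The excess of lower calls in combined stress was thus shared with genes of somewhat lower abundance and was not particular to the list.

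The median log2 change of the 133 was -0.34 for combined stress against heat stress, with 110 below 0, and -0.34 for combined stress against water deficit, with 95 below 0. Over all genes tested these medians were -0.02 and 0.02. For heat stress against water deficit the median was -0.04, beside 0.01. With library size as the only scaling, the 3 medians of the 133 were -0.25, -0.27 and -0.07, beside 0.07, 0.09 and -0.01 over all genes. With genes chosen on the mean over all 12 libraries, combined stress had 5 genes above and 30 below heat stress, and 18 above and 43 below water deficit. Heat stress then had 12 above and 13 below water deficit. That choice can admit genes through a group where they are high.

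**Figure D3:**
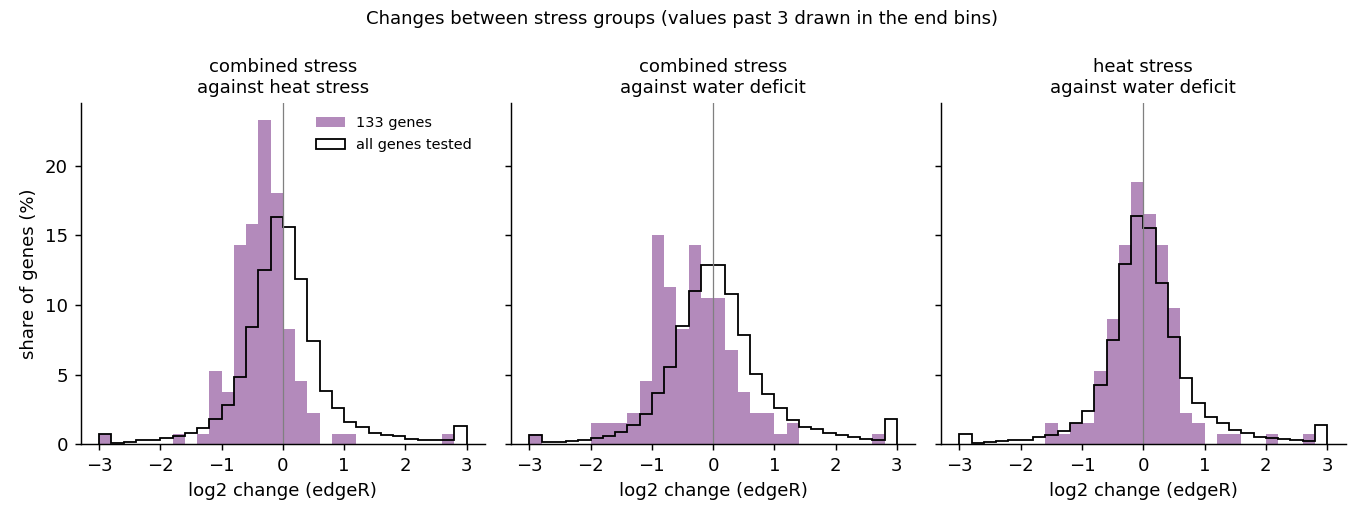
Share of genes (vertical axis, percent) by log2 change from edgeR (horizontal axis) for the 133 genes, filled, and for all genes tested, outline, in the 3 comparisons between stress groups. The filled shape is shifted below 0 in the panels for combined stress, whose medians are -0.34 and -0.34, and is centred near -0.04 for heat stress against water deficit.

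Single libraries weighed on these counts. Of the 42 genes called between combined stress and heat stress, 15 remained called in all 12 fits that each left out a library, all of them lower, and 15 was also the count without combined stress replicate 2. The count was 28 without combined stress replicate 1 and 28 without replicate 3. Between combined stress and water deficit 52 of the 71 remained called in all 12 fits, 7 higher and 45 lower, and 8 higher and 56 lower were called without water deficit replicate 2. Between heat stress and water deficit 10 of the 23 remained, 3 higher and 7 lower, and 3 higher and 12 lower were called without water deficit replicate 2. The comparison of heat stress with water deficit gave 13 genes without water deficit replicate 3 or heat stress replicate 3, and 14 without control replicate 2.

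The calls sorted the genes into a few patterns. The most frequent was a level in combined stress below both single stresses, found in 32 of the 133 (24.1%), beside 2.34% of all genes tested and 29.6% of the 253 genes at 250 to 500 CPM in control. Lower levels in both hot groups than in water deficit were found in 16 (12.0%), beside 1.17% of all genes and 9.09% of those 253. Higher levels in both hot groups than in water deficit were found in 4 (beside 1.33% of all genes), and a level in combined stress above both single stresses in 2 (beside 0.896%). No comparison between stress groups called 51 of the genes (38.3%), beside 83.7% of all genes and 32.0% of the 253. By group means alone, combined stress was the lowest of the 4 groups for 79 genes (59.4%, beside 26.9% of all genes and 69.6% of the 253) and the highest for 24 (18.0%, beside 37.9% and 12.6%). The shares of the 133 were thus near those of the genes just below the limit.

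The genes named by ID below were picked by their change in combined stress against control. The same combined stress libraries enter their comparisons with the other stress groups, so p-values of such comparisons are a description. GLYMA_08G200100, ranked 100th in control, belonged to the pattern of high levels in both hot groups. It had 5722, 5683 and 5423 CPM in combined stress, 7798, 3933 and 4314 CPM in heat stress, 1143, 659 and 786 CPM in water deficit, and 937, 440 and 401 CPM in control. All 6 hot libraries exceeded all 6 cool ones, and its 6 hot libraries were at levels that only the leading genes had in control. Its means were 5609 ± 163 CPM in combined stress, 5348 ± 2130 CPM in heat stress, 863 ± 251 CPM in water deficit and 593 ± 299 CPM in control (SD, n = 3 each). The log2 change was 2.62 ± 0.417 for combined stress against water deficit (SE, adjusted p = 0.00347 by edgeR) and 2.65 ± 0.418 for heat stress against water deficit (SE, adjusted p = 0.0101 by edgeR). Between combined stress and heat stress it was -0.03 ± 0.393 (adjusted p = 0.984 by edgeR), and its sign depended on the scaling and on the libraries included. Against control, as a description, the log2 changes were 3.18 in combined stress, 3.21 in heat stress and 0.56 in water deficit.

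GLYMA_13G347700, ranked 78th, was highest where both stresses met. It had 2402, 2727 and 1908 CPM in combined stress, 1288, 1407 and 1029 CPM in heat stress, 1027, 894 and 721 CPM in water deficit, and 775, 599 and 616 CPM in control. Combined stress overlapped with no other group. The log2 change was 1.34 ± 0.175 against water deficit (SE, adjusted p = 5.40e-05 by edgeR) and 0.83 ± 0.173 against heat stress (SE, adjusted p = 0.00846 by edgeR). The call against heat stress was lost without combined stress replicate 2 (adjusted p = 0.0668 by edgeR) and without heat stress replicate 3 (adjusted p = 0.0523 by edgeR). Log2 changes against control, again as a description, were 1.76 in combined stress, 0.94 in heat stress and 0.42 in water deficit.

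GLYMA_02G028200, ranked 2nd in control, was at a small fraction of its control level in combined stress. It had 28.1, 42.6 and 36.1 CPM in combined stress, 2588, 988 and 4002 CPM in heat stress, 625, 1153 and 140 CPM in water deficit, and 7791, 6928 and 4416 CPM in control. The combined stress libraries lay below every other library, and both single stresses varied widely between replicates and lay below control throughout. Its mean was 35.6 ± 7.26 CPM in combined stress, 2526 ± 1508 CPM in heat stress, 639.4 ± 506.7 CPM in water deficit and 6378 ± 1754 CPM in control (SD, n = 3 each), and the control mean was 179 times the combined stress mean. The log2 change in combined stress was -6.24 ± 0.892 against heat stress (SE, adjusted p = 0.00712 by edgeR) and -4.23 ± 0.812 against water deficit (SE, adjusted p = 0.0109 by edgeR). The call against heat stress was lost without combined stress replicate 2 (adjusted p = 0.0505 by edgeR), where the log2 change was -6.36. The call against water deficit was lost without combined stress replicate 1, at a log2 change of -4.07 (adjusted p = 0.0541 by edgeR), and in a fit of only the libraries compared, at -4.20 (adjusted p = 0.0503 by edgeR). Against control its log2 changes were -7.55 in combined stress, -1.31 in heat stress and -3.32 in water deficit. Relative to control it lost 0.634 points of the library in combined stress, 0.385 points in heat stress and 0.574 points in water deficit, the largest loss among the 133 in each.

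GLYMA_18G294200, ranked 92nd, was low in both hot groups. It had 168, 167 and 152 CPM in combined stress, 233, 161 and 183 CPM in heat stress, 653, 547 and 562 CPM in water deficit, and 444, 644 and 740 CPM in control. All 6 hot libraries lay below all 6 cool ones. The log2 change was -1.93 ± 0.183 for combined stress against water deficit (SE, adjusted p = 1.51e-06 by edgeR) and -1.59 ± 0.181 for heat stress against water deficit (SE, adjusted p = 2.74e-05 by edgeR). Between combined stress and heat stress it was -0.34 ± 0.178 (adjusted p = 0.318 by edgeR). Its log2 changes against control were -1.97 in combined stress, -1.63 in heat stress and -0.04 in water deficit.

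**Figure D4:**
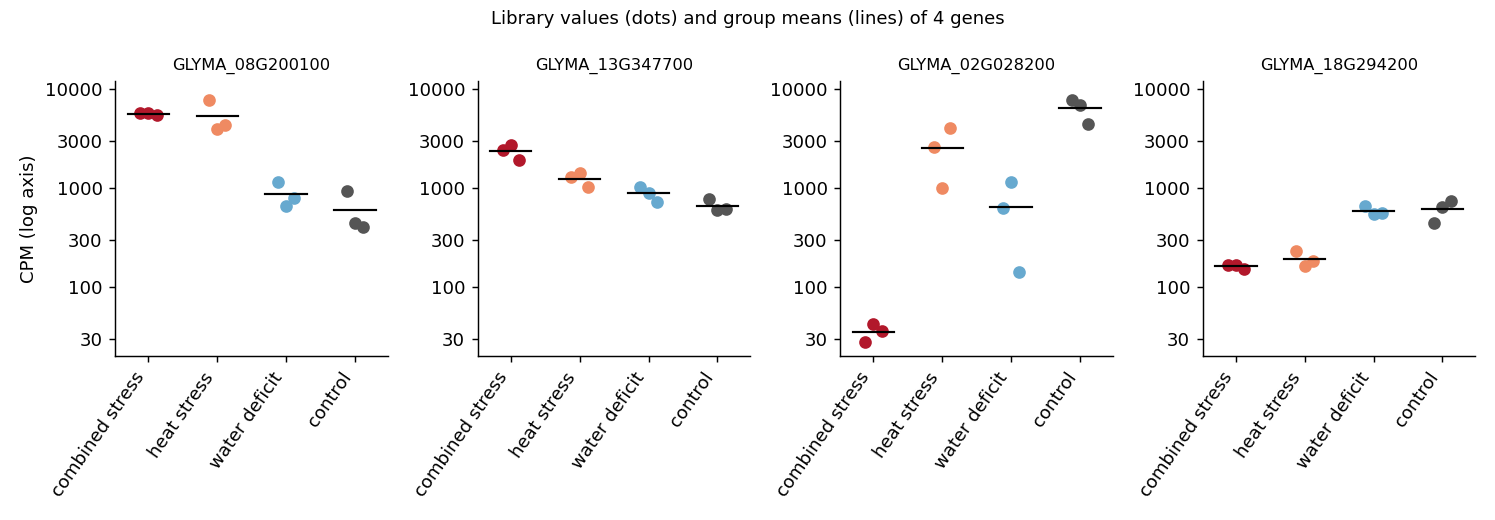
CPM (vertical, log axis) of GLYMA_08G200100, GLYMA_13G347700, GLYMA_02G028200 and GLYMA_18G294200 in the 12 libraries, as dots, with group means as lines, from combined stress at the left to control at the right of each panel. GLYMA_02G028200 lies between 28.1 and 42.6 CPM in combined stress and at or above 4416 CPM in all control libraries.

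Other genes followed the same patterns at smaller size. The gene ranked 70th had 1796, 1863 and 1780 CPM in combined stress, 2405, 1700 and 1818 CPM in heat stress, 778, 705 and 648 CPM in water deficit, and 670, 748 and 801 CPM in control. It and the gene ranked 131st separated the hot from the cool libraries completely, with log2 changes against water deficit of 1.28 and 0.99 in combined stress and of 1.496 and 1.28 in heat stress, each called in all fits that left out a library. Among genes low in both hot groups, those ranked 31st, 26th and 61st had log2 changes against water deficit of -1.20, -0.99 and -0.94 in combined stress and of -1.31, -1.08 and -0.88 in heat stress, also called in all such fits.

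The pattern of lowest levels in combined stress was graded in some genes and not in others. The gene ranked 69th had 224, 170 and 235 CPM in combined stress, 542, 346 and 386 CPM in heat stress, 888, 721 and 729 CPM in water deficit, and 819, 747 and 667 CPM in control. Heat stress lay between combined stress and the 2 cool groups without overlap. The gene ranked 79th had 317, 301 and 319 CPM in combined stress, 748, 511 and 652 CPM in heat stress, 555, 635 and 595 CPM in water deficit, and 727, 639 and 607 CPM in control. Combined stress alone stood apart, by -1.12 ± 0.143 against heat stress (SE, adjusted p = 0.000195 by edgeR) and -0.997 ± 0.142 against water deficit (SE, adjusted p = 0.000138 by edgeR) on the log2 scale. The gene ranked 106th showed how wide replicate spread could be, with 1677, 2606 and 2033 CPM in combined stress, 214, 510 and 227 CPM in heat stress, 1367, 573 and 813 CPM in water deficit, and 100, 944 and 671 CPM in control. It passed no test between stress groups despite its range.

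Many genes hardly moved. The ratio of the highest to the lowest group mean was within 1.5 for 59 of the 133, had a median of 1.57, and was over 2 for 27. The gene with the smallest ratio, 1.05, was ranked 65th, with 783.9 ± 44.8 CPM in combined stress, 750.2 ± 101.0 CPM in heat stress, 750.5 ± 57.7 CPM in water deficit and 757.6 ± 53.6 CPM in control (SD, n = 3 each). Ranks 119 and 77 followed with ratios of 1.06 and 1.08. Both ENSRNA genes, ranked 34th and 66th, were called in no comparison.

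A term for non-additivity was fitted as combined stress minus heat stress minus water deficit plus control, and it too used the libraries that chose the genes. Of the 133, 3 were called, all negative, where 0.139% of all genes tested were called (0.0284% positive and 0.111% negative), and 55 had an unadjusted p under 0.05, where 10.6% of all genes did. Of the 253 genes at 250 to 500 CPM in control, 11 (4.35%) were called, all negative, against 2.26% of the 133. The 3 called among the 133 were ranked 133rd, 32nd and 46th, and 2 of them, ranked 32nd and 46th, lay well inside the list. The gene ranked 32nd had 721, 548 and 652 CPM in combined stress, 1053, 1358 and 1223 CPM in heat stress, 1157, 1527 and 1325 CPM in water deficit, and 1356, 1299 and 1147 CPM in control. Only its combined stress libraries stood apart. None of the 3 remained called in all fits that left out a library, where the count ranged from 0 to 7. It was 0 without control replicate 2 or 3, water deficit replicate 2 or 3, heat stress replicate 3, and combined stress replicate 1 or 2.

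The set of genes with a group mean above 500 CPM also differed between groups, and some of the genes that differed lay just below that level in control. In combined stress 118 genes had a group mean of at least 500 CPM, of which 86 were among the 133 (72.9% of the combined stress list and 64.7% of the control list). In heat stress 142 genes reached it and 110 were among the 133 (77.5% and 82.7%), and in water deficit 132 reached it and 119 were among the 133 (90.2% and 89.5%). All 4 group means were at least 500 CPM for 80 of the 133. Of the 47 genes that dropped under 500 CPM in combined stress, 20 did so in that group only.

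**Figure D5:**
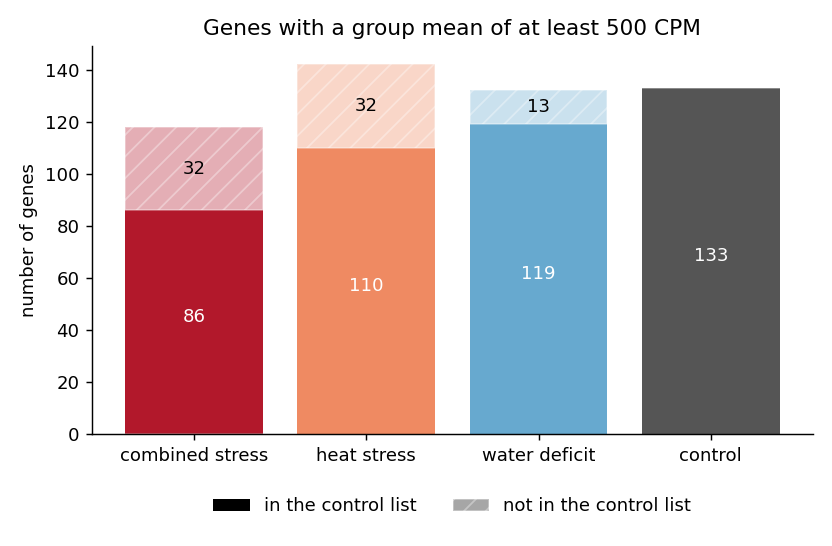
Number of genes (vertical axis) with a group mean of at least 500 CPM in combined stress, heat stress, water deficit and control, split into genes in the control list and genes outside it. Combined stress kept 86 of the 133 control genes and added 32, heat stress kept 110 and added 32, and water deficit kept 119 and added 13.

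Genes that entered were chosen by a mean under 500 CPM in control and of at least 500 CPM in a stress, so their changes are a description. There were 32 in combined stress, 32 in heat stress and 13 in water deficit, 50 in any stress, with 19 shared by combined stress and heat stress. The highest of them had 2680, 2963 and 2757 CPM in combined stress, 5501, 2319 and 2722 CPM in heat stress, and 332, 156 and 131 CPM in control. In both hot groups it exceeded the cool control libraries without overlap. Another averaged 1053 ± 35.3 CPM in combined stress and 15.3 ± 1.498 CPM in control, and one more averaged 597.8 ± 34.3 CPM in combined stress and 0.383 ± 0.302 CPM in control (SD, n = 3 each). In water deficit the highest entrant averaged 814.4 ± 259.3 CPM, against 391.8 ± 49.3 CPM in control. Many entrants lay nearer the limit, with median control means of 305, 433 and 462 CPM for combined stress, heat stress and water deficit. In that order, 24, 14 and 0 were called higher than control, beside 5.38%, 1.13% and 0.00516% of all genes tested. All libraries of the stress lay above control for 32, 23 and 3 entrants, a separation that the choice of these genes favours. The share of all genes separated in that way is not given here, so nothing is read from these counts.

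Evenness of the whole library was measured in the same libraries. The number of genes that together held 50% of the counts was 2781 ± 118 in combined stress, 2412 ± 230 in heat stress, 2550 ± 139 in water deficit and 2618 ± 40.5 in control (SD, n = 3 each). At the top of the distribution the order differed: the 10 most abundant genes of each library held 5.57% ± 0.277 in combined stress, 6.20% ± 1.14 in heat stress, 4.60% ± 0.559 in water deficit and 4.39% ± 0.361 in control. Of 12 exact permutation tests between stress groups over such measures, the smallest adjusted p was 0.171, with 0.1 the smallest raw p possible.

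The 131 genes with a GLYMA ID lay on all 20 chromosomes by their IDs, between 3 and 13 on each. In 6 pairs, 12 genes in all, both partners had adjacent ID numbers, and partners did not always move together. The pair ranked 8th and 10th had log2 changes of 0.77 and -0.36 for combined stress against water deficit, and the pair ranked 78th and 19th had 1.34 and 0.19. Reads shared between similar neighbouring genes may be split in a way that the sources used here do not describe, so values within such pairs are uncertain.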

How the data were processed

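RNA sequencing of 12 pooled soybean pod samples was analysed from 2 tables. The authors deposited raw read counts per gene, integers whose sums differ between libraries. They also deposited a table of FPKM, a unit scaled by gene length and library size. The FPKM were not a fixed multiple of CPM for each gene. The gene ranked 4th had 4077 CPM and 2027.5 FPKM in combined stress, against 5547 CPM and 3487.6 FPKM in heat stress. The cause was not tested. HISAT2 2.2.1 is named in the submitters' processing notes. Which tool counted the reads, against which build and annotation, and whether by strand, is not given in the sources used here. Groups and replicate numbers came from the sample titles.

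The genes and lists were chosen with earlier results of these data known. CPM was count divided by column sum. The main test was edgeR 4.0.16 (R 4.3.3), quasi-likelihood with robust estimation, TMM factors (0.951 to 1.06) and filterByExpr, over all 12 libraries in 1 fit, with Benjamini-Hochberg adjustment over 38737 genes and calls at an adjusted p under 0.05. SEs are the log2 change divided by the square root of F, which is approximate. Shares of the library were compared by exact permutation over libraries. Scripts were tested on simulated data.

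Replicates are separately pooled samples, so p-values measure the spread between pools within a chamber. Named IDs were limited to the 2 largest rises and the 2 largest falls in combined stress against control among genes called. Tests that share the libraries by which a gene was picked favour it, so such p-values are a description. Other genes are given by rank. The genes given by rank followed the rule of highest control CPM, largest called changes, largest gains or losses of share, smallest spread of group means and the edge of the limit, and those ranked 32nd, 46th and 106th and the neighbouring pairs were chosen after their values were seen. Of the IDs, 0 of 57147 matched the gene table used here (Glycine_max_v4.0, 59048 genes), so planned lists by function, tissue markers, promoters and proteins were not analysed here. Alternatives used DESeq2 1.42.0, limma 3.58.1 (limma-voom), other scalings, filters, limits and left-out libraries. A choice of genes on 2 control libraries with the remaining one held out was added after seeing the data.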

Additional observations from a re-analysis of the deposited data

Results flagged for a closer look

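The difference between the effect of heat under 30% water and under 100% water passed edgeR's test in 3 of the 133 genes, which is what brought them here. That term was called in 0.139% of all genes tested and in 4.35% of the 253 genes at 250 to 500 CPM in control. The gene ranked 133rd had an interaction log2 of -1.35 (adjusted p = 0.0242 by edgeR), the gene ranked 32nd had -1.08 (adjusted p = 0.0277 by edgeR) and the gene ranked 46th had -1.04 (adjusted p = 0.0398 by edgeR). The gene ranked 133rd lies at the edge of the control limit, with 177, 175 and 211 CPM in combined stress, 384, 431 and 506 CPM in heat stress, 379, 636 and 529 CPM in water deficit, and 577, 497 and 432 CPM in control. The gene ranked 46th had 307, 265 and 291 CPM in combined stress, 621, 558 and 561 CPM in heat stress, 870, 866 and 891 CPM in water deficit, and 1110, 891 and 751 CPM in control. Control libraries that chose these genes also enter the term.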

How the results depend on the processing

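Values here are percentages of the genes chosen that were called: 133 genes unless the choice was changed, 133, 131 and 136 with control replicates 1 to 3 held out, 386 at 250 CPM and 128 with the choice on all 12 libraries. Combined stress against control gave 34.35% and 30.15% with control replicate 2 or 3 held out, against 53.38% (45 of 131 and 41 of 136 genes in place of 71 of 133). Heat stress against control gave 7.519% at an adjusted p under 0.01, 7.519% in a fit of only the libraries compared, and 3.759%, 3.053% and 6.618% with control replicates 1 to 3 held out, against 14.29%. Water deficit against control gave 0.7519% by DESeq2, by limma-voom and with control replicate 1 held out, 0.2591% at a limit of 250 CPM and 0.7812% with genes chosen on all 12 libraries, against 0. Combined stress against heat stress gave 18.05% at an adjusted p under 0.01, against 31.58%. Heat stress against water deficit gave 27.07% by DESeq2 (15 higher and 21 lower), 6.767% with only the libraries compared and 7.519% at an adjusted p under 0.01, against 17.29%. The interaction gave 0.0 with library size alone, at an adjusted p under 0.01 and with each control library held out, 4.511% with no filter and by limma-voom, 15.79% by DESeq2 and 3.627% at 250 CPM, against 2.256%. The cause of these differences was not tested. Holding out control libraries changed both the genes chosen and the number of control libraries.

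Leaving out each library in turn gave 45.11% to 57.89% for combined stress against control, 6.015% to 15.04% for heat stress against control, 0.0 for water deficit against control, 11.28% to 34.59% for combined stress against heat stress, 40.60% to 55.64% for combined stress against water deficit, 9.774% to 19.55% for heat stress against water deficit and 0.0 to 5.263% for the interaction.

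Replicate numbers did not pair the samples, since correlations of same-numbered deviations ran from -0.326 to 0.219. With the replicate block, 55.64%, 12.03%, 0.0, 33.83%, 54.14%, 14.29% and 3.008% of the genes were called in those 7 comparisons, in the same order, and no count moved by over 1.5 times.

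The share of the library depends on the limit. In combined stress, heat stress, water deficit and control it was 22.17%, 24.99%, 23.98% and 23.76% at 250 CPM, and 8.936%, 10.40%, 9.501% and 9.217% at 1000 CPM. It was 17.34%, 19.28%, 17.27% and 17.09% of summed FPKM, and 18.51%, 21.15%, 19.06% and 18.96% for the 133 genes highest in control FPKM. Without the first in rank it was 13.52%, 14.89%, 14.31% and 14.43%. With genes chosen on all 12 libraries it was 15.85% in combined stress and 14.67% in control, so that order between the 2 groups changed with the choice. On the FPKM scale, 1762, 1478, 1706 and 1721 genes held 50%, the top 10 held 8.814%, 9.716%, 7.303% and 7.074%, and the top 100 held 18.83%, 20.47%, 17.28% and 16.98%.

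GLYMA_08G200100 changed sign between combined stress and heat stress with library size alone (0.069), limma-voom (0.043), the replicate block (0.080), and without heat stress replicate 1 or combined stress replicate 3 (0.384 and 0.012), with a range of -0.192 to 0.384 over left-out libraries. GLYMA_18G294200 changed sign between water deficit and control without control replicate 3 (0.115) or water deficit replicate 2 (0.031), with a range of -0.224 to 0.115. None of these passed the test. Tests on words in gene descriptions, promoters and proteins were not run. Depth did not limit the genes described, whose lowest count was 626.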

Other observations

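The gene ranked 84th had 637.3 CPM but 12.6 FPKM in control, which implies a length of 50.6 kb, against a median of 1.65 kb over the 133 genes and a next highest value of 8.68 kb. How the deposited FPKM and counts of that gene relate was not tested. The shortest implied length was 0.297 kb, for the gene ranked 28th, which had 4519 FPKM in control.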
